A study of Homo sapiens with 6 samples.

Results

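BNIP3L, BNIP3, FUNDC1, BCL2L13, FKBP8, PHB2 and PINK1 encode receptors and regulators of mitophagy, the removal of mitochondria by autophagy. These 7 genes were taken by symbol from a table of 59608 genes, and all 7 had enough reads to be tested. The list was drawn up with earlier results of these libraries known. BNIP3L was chosen by its log2 fold change between the groups, so its difference is given as a description with no test, and the other 6 were added for their function.

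RNA was sequenced from HepG2, a long-established line of human hepatoma cells, in 6 libraries. In all 6, endogenous VEZF1, a zinc finger transcription factor, had been removed with a lentiviral guide RNA. In the 3 VEZF1-WT libraries the wild-type protein had been put back. In the 3 VEZF1-2A libraries it was a form in which a pair of serines reported to carry the sugar O-GlcNAc is alanine. For re-expression in hepatoma cells the methods describe adenoviruses. Whether the edited cells were 1 clone, and whether the replicates were separate cultures, is not stated in the sources used here, so the spread between replicates may be technical. Cells with unedited VEZF1 or with no re-expression were not analysed here. The comparison asked how loss of this pair of serines in VEZF1 went with mRNA levels.

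The VEZF1-WT libraries held 47414775, 35272710 and 57199396 counts, and the VEZF1-2A libraries 28756765, 39565464 and 33966492. VEZF1 itself, the edited gene, had 2807, 1623 and 2253 counts with VEZF1-WT against 1346, 1944 and 1288 with VEZF1-2A. Both groups carry a re-expressed form, so this count does not tell the groups apart. Hepatocyte markers were abundant in every library, with a summed level of 11809 to 14608 TPM (a count scaled to exon length and library size) over 10 genes. APOA2, a lipoprotein component, and ALB, albumin, led the list with mean levels of 3484 and 2285 TPM in VEZF1-WT. Of 10 markers of other cell types, HBB had 0 counts in all libraries together, CD3E 2, COL1A2 6 and PTPRC 16. The most abundant of these 10 was CD68, which shares 81.6% of its exon bases with AC016876.3, and ACTA2 followed at 26.1 TPM in VEZF1-WT. The 10 summed to 158 to 247 TPM in a library. Of the 10 hepatocyte markers and the 6 other markers with enough reads, 0 passed the test between the groups, and their median log2 fold changes (VEZF1-WT over VEZF1-2A) were −0.05 and −0.23. The smallest p in each list belonged to SERPINA1 and HNF4A, with log2 fold changes of −0.11 and −0.09, and to COL1A1 and PECAM1, with log2 fold changes of −0.58 and −0.34 on 24 to 58 and 59 to 132 counts in a library. In both groups replicate 3 stood furthest from the other libraries of its group (chi-square per degree of freedom of 19.02 and 26.97 against 6.86 between the others in VEZF1-WT, and of 24.09 and 17.15 against 8.73 in VEZF1-2A). Hepatocyte markers were also above their mean there, by 0.24 in VEZF1-WT and 0.21 in VEZF1-2A on the log2 scale. The differences of the 7 genes, of SRC and of the HIF targets as a set are therefore also given without replicate 3. So are those of the single HIF targets with p under 0.05 before adjustment. Differences of the other genes are given with replicate 3.

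Most mitophagy receptors sit in the outer mitochondrial membrane and bind the ATG8 proteins of the growing autophagosome through a short LC3-interacting region. BNIP3L, also called NIX, and its relative BNIP3 are BCL2 family proteins that act in this way, and both genes are classical targets of the hypoxia-inducible factors (HIF). PINK1 acts in a different manner, as a kinase that accumulates on damaged mitochondria and phosphorylates ubiquitin there.

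Promoter sequence from RefSeq (GRCh38.p14) was at hand for 4 of the 7 genes, BNIP3, FUNDC1, BCL2L13 and PHB2, and not for BNIP3L, FKBP8 and PINK1. Stretches upstream of BNIP3 (chr10:131982014-131982173, minus strand) and FUNDC1 (chrX:44543002-44543109, minus strand) are shown 5′ to 3′, because BNIP3 is a known HIF target and FUNDC1 a receptor of another family. Each ends before the outermost start of the gene in the count table or in GENCODE, so the BNIP3 stretch adjoins the gene as counted, while the FUNDC1 stretch leaves out the bases next to it. Capitals mark the letters ACGTG or GCGTG, the core of the HIF binding motif, on either strand.
BNIP3: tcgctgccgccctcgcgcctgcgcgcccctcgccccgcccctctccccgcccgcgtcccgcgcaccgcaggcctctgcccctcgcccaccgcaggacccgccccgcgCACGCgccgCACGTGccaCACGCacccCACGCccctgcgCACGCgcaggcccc
FUNDC1: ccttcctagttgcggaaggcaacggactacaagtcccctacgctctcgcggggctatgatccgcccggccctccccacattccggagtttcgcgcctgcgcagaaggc
The BNIP3 stretch of 160 bases held 6 matches, 1 on the strand shown and 5 on the other, and the palindrome CACGTG among them counts once on each strand. The FUNDC1 stretch of 108 bases held 0. In whole windows of 300 bases around the start, BNIP3 again had 6 matches, FUNDC1 and both PHB2 windows had 0, and of 3 BCL2L13 windows 1 had a single match. These letters are common, since 48.45% of 35116 such windows held at least 1 match, while 0.923% held 6 or more. A match is a string of letters and not a measured binding site.

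FKBP8, PHB2 and FUNDC1 were the most abundant of the 7 genes per exon length, and PINK1 the least. FKBP8, an outer-membrane chaperone of the FK506-binding family that also binds LC3, had a mean level of 140.5 TPM over the 6 libraries (126.6 to 151). PHB2, an inner-membrane prohibitin that becomes a receptor when the outer membrane breaks, followed at 59.6 TPM, FUNDC1, a hypoxia-linked outer-membrane receptor, at 41.7, and BNIP3 at 29.6. The ranges of these 4 genes did not overlap from library to library. BNIP3L stood at 9.01 TPM (6.82 to 11.6), BCL2L13, a BCL2 family receptor, at 7.81 (6.9 to 8.98), and PINK1 at 6.38 (4.92 to 7.68). These last neighbours overlapped, with BNIP3L above BCL2L13 in 4 of 6 libraries and BCL2L13 above PINK1 in 6 of 6. BNIP3 thus had 3.28 times the level of BNIP3L per length. The length used is that of all annotated exon bases of a gene together, not of a single transcript, and the order and this ratio depend on it. By counts scaled to library size alone, BNIP3 stood at position 2 of the 7 genes and FUNDC1 at position 5. PINK1 was last by both measures, and it shares exon bases with an antisense gene, as described below. Among all genes tested, FKBP8 lay at the 95.6th percentile of level, BNIP3L at the 59.1st and PINK1 at the 51.5th.

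**Figure D1:**
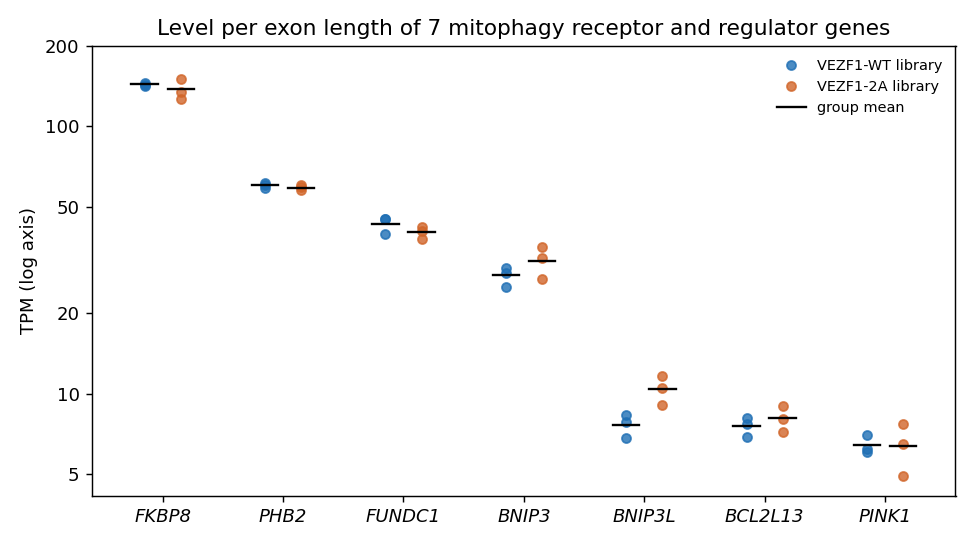
Level per exon length (TPM, log axis) of the 7 genes, with a point for each library of VEZF1-WT (blue) and VEZF1-2A (orange) and a black line for the mean of a group (n = 3). FKBP8 lies near 140.5 TPM and PINK1 near 6.38, and the BNIP3L, BCL2L13 and PINK1 points overlap.

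BNIP3L (chromosome 8 of GRCh38, from 26383054 to 26505636, plus strand) had a lower level in each VEZF1-WT library than in any VEZF1-2A library. In CPM (counts scaled to library size) it stood at 13.5, 12.5 and 11.5 in replicates 1, 2 and 3 of VEZF1-WT and at 14.6, 18.9 and 17.9 in those of VEZF1-2A. The gap between the nearest libraries, replicate 1 of each group, was small beside the distance to the other VEZF1-2A libraries. The group means were 12.5 ± 0.973 CPM (SD, n = 3) and 17.2 ± 2.26 (SD, n = 3), so that the VEZF1-2A mean was 1.37 times the VEZF1-WT mean. The fitted log2 fold change of VEZF1-WT over VEZF1-2A was −0.46 (standard error 0.11). It was −0.38 without replicate 3 of both groups, and ranged from −0.56 to −0.38 over all alternatives. These values led to the choice of the gene and are not evidence for a difference. Of all genes tested, 7.36% had groups that did not overlap, and 3.86% did so with VEZF1-WT lower. BNIP3L shares 330 exon bases with PNMA2, a gene on the opposite strand that had at most 2 counts in a library, against 426 to 758 for BNIP3L.

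**Figure D2:**
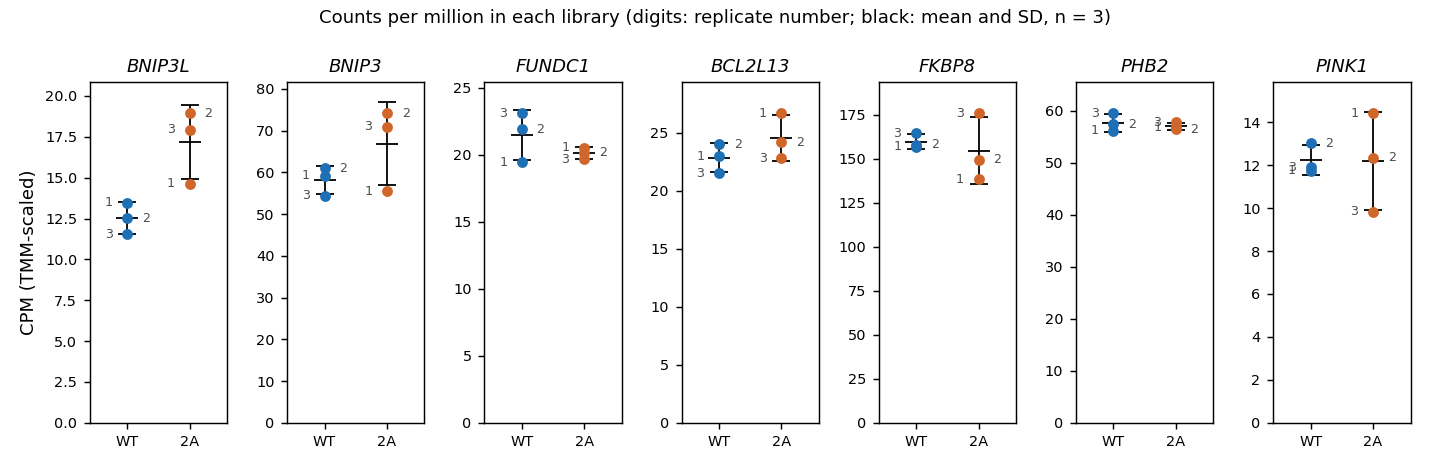
CPM of each of the 7 genes in the 3 VEZF1-WT (blue) and 3 VEZF1-2A (orange) libraries, with axes from 0, the replicate number beside each point, and the mean and SD of each group in black. The groups are separate for BNIP3L alone, and replicate 1 of VEZF1-2A is the lowest of its group for BNIP3L, BNIP3 and FKBP8 and the highest for FUNDC1, BCL2L13 and PINK1.

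None of the other 6 genes passed the test across all genes, nor did any gene tested. The quasi-likelihood test of edgeR left 0 of 19111 genes (0.0%) under an adjusted threshold of 0.05 (smallest adjusted p = 0.9996). Before adjustment 408 genes (2.13%) had p under 0.05, and 0 of these 6 genes were among them. That count became 1, for BNIP3 with no filter on low counts or without replicate 1 of VEZF1-2A, and for FKBP8 without replicate 3 of VEZF1-2A. Their log2 fold changes lay between −0.20 and 0.09, with a median standard error of 0.08. Without replicate 3 of both groups they were −0.12 for BNIP3, 0.02 for FUNDC1, −0.11 for BCL2L13, 0.12 for FKBP8, −0.0008 for PHB2 and −0.11 for PINK1.

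BNIP3 (chromosome 10, from 131966455 to 131982013, minus strand) stood at 59.1, 60.9 and 54.4 CPM with VEZF1-WT against 55.4, 74.1 and 70.9 with VEZF1-2A. Replicates 2 and 3 of VEZF1-2A lay above every VEZF1-WT library, but replicate 1 lay among them. The log2 fold change was −0.20 (95% confidence interval −0.43 to 0.02, adjusted p = 0.9996 in edgeR's quasi-likelihood test). Without replicate 1 of VEZF1-2A it was −0.32, and without replicate 3 of both groups −0.12. The table also lists 39 pseudogenes of BNIP3, of which 16 had any count, and together these held 1.62% to 3.27% of the counts of BNIP3 in a library.

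The ratio of BNIP3 to BNIP3L per exon length was 3.42, 3.79 and 3.68 with VEZF1-WT against 2.96, 3.05 and 3.08 with VEZF1-2A. This ratio did not overlap between the groups, with means of 3.63 ± 0.192 (SD, n = 3) and 3.03 ± 0.0664 (SD, n = 3), and it contains the BNIP3L values that led to the choice. The profile of BNIP3 over the 6 libraries was also among the closest to that of BNIP3L. By the root mean square difference of centred log2 CPM, BNIP3 lay 0.137 from BNIP3L and ranked 40 of 15221 genes, where the median gene lay 0.284 away. BCL2L13 ranked 2862, PHB2 5845, FKBP8 7224, FUNDC1 11897 and PINK1 12988. The 5 nearest genes were FAM13A (0.0641), SLC18A2 (0.0836), AC022107.1 (0.0901), AC092155.1 (0.0954) and PELI3 (0.0975). These distances include the difference between the groups.

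FUNDC1 (chromosome X, from 44523639 to 44542859, minus strand) stood at 19.4, 21.9 and 23.1 CPM with VEZF1-WT against 20.5, 20.1 and 19.7 with VEZF1-2A. The VEZF1-2A libraries lay within the span of the VEZF1-WT libraries. Its log2 fold change was 0.09 (95% confidence interval −0.09 to 0.27). It was 0.04 without replicate 3 of VEZF1-WT and 0.16 without replicate 1 of VEZF1-WT. FKBP8 (chromosome 19, from 18531751 to 18544077, minus strand) stood at 156.8, 158.1 and 164.7 CPM with VEZF1-WT against 138.5, 149.6 and 175.9 with VEZF1-2A. The VEZF1-2A libraries here spread on both sides of the VEZF1-WT libraries. The log2 fold change of FKBP8 was 0.05 (95% confidence interval −0.13 to 0.23), and it was −0.03 without replicate 1 of VEZF1-2A. Its 18 exon bases shared with AC005387.1 carried little, as that gene had 2 to 13 counts in a library.

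PHB2 (chromosome 12, from 6965327 to 6970753, minus strand) was the steadiest of the 7 genes, at 56.1, 57.4 and 59.5 CPM with VEZF1-WT against 56.9, 56.5 and 57.8 with VEZF1-2A. All 6 libraries thus lay within 56.1 to 59.5 CPM. Its log2 fold change was 0.02 (95% confidence interval −0.11 to 0.14). PHB2 shares 239 exon bases with the small RNA SCARNA12, which had 40 to 94 counts in a library, and 56 with U47924.1, which had at most 2. Its pseudogene PHB2P1 had 0 counts. BCL2L13 (chromosome 22, from 17628855 to 17730855, plus strand) stood at 23, 24 and 21.5 CPM with VEZF1-WT against 26.7, 24.2 and 22.8 with VEZF1-2A. These groups overlapped as well, and the log2 fold change was −0.10 (95% confidence interval −0.28 to 0.07), or −0.04 without replicate 1 of VEZF1-2A.

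PINK1 (chromosome 1, from 20633458 to 20651511, plus strand) stood at 11.7, 13 and 11.9 CPM with VEZF1-WT against 14.4, 12.3 and 9.83 with VEZF1-2A. The VEZF1-2A libraries spanned the VEZF1-WT libraries on both sides, with a coefficient of variation of 18.8% against 5.73%. The log2 fold change was 0.00 (95% confidence interval −0.28 to 0.29), and its sign turned with the scaling and with single libraries left out, to −0.13 without replicate 3 of VEZF1-2A. The antisense gene PINK1-AS covers 39.5% of the exon bases of PINK1 and had 2.09 to 2.81 times its counts, and MIR6084, with 17 to 44 counts, shares 110 bases. The strand used in counting is not given in the sources used here, so reads of PINK1 and PINK1-AS cannot be told apart in the shared part. PINK1-AS stood at 30.5, 27.3 and 31.8 CPM with VEZF1-WT against 32, 31 and 27.6 with VEZF1-2A.

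**Figure D3:**
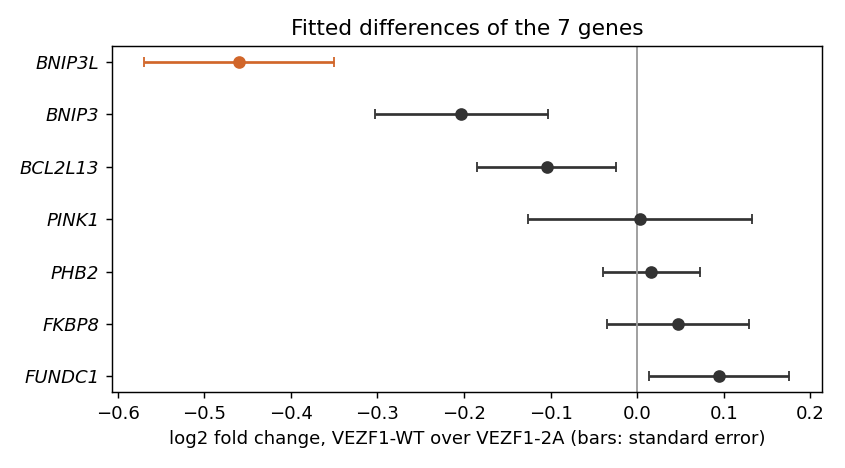
Fitted log2 fold change of VEZF1-WT over VEZF1-2A for the 7 genes, with standard errors as bars. BNIP3L (orange) stands at −0.46 and was chosen for this value, and the other 6 lie between −0.20 and 0.09.

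Summed over the 7 genes, the level was 296.1 ± 6.81 TPM (SD, n = 3) with VEZF1-WT against 293 ± 10.2 (SD, n = 3) with VEZF1-2A. BNIP3L made up 2.58% ± 0.263 (SD, n = 3) of this sum with VEZF1-WT and 3.54% ± 0.351 (SD, n = 3) of it with VEZF1-2A.

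The rest of the pathway was read from 11 lists with 136 tested genes, not counting the 7. Of these 136 genes, 0 had an adjusted p-value under 0.05. At an unadjusted p-value under 0.05, 0 were higher in VEZF1-WT (0.832% of all genes tested) and 7 were lower (1.3% of all genes tested). Of those 7 genes, 6 belonged to the list of HIF targets and the other was SRC. The count of pathway genes under this threshold in either direction was 15 without replicate 1 of VEZF1-2A and 3 without replicate 2 of VEZF1-2A. Groups did not overlap in 10 of the 136 genes (7.35%, against 7.36% of all genes tested), 4 of them higher in VEZF1-WT (3.5% of all genes tested) and 6 lower (3.86%). The 4 were PHB, MUL1, TBK1 and CYCS, and the 6 were RHEB, SRC, GABARAPL2, HK2, LOX and P4HA2.

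The 28 HIF targets, a list without BNIP3 and BNIP3L, all had a log2 fold change below 0, where 49.9% of all genes tested did. These genes were read in the same 6 libraries and can vary together, so they are not independent observations. This list, like the others, was drawn up with earlier results of these data known. Their median was −0.17, against 0.00 over all genes. The adjusted threshold was passed by 0 of the 28, while 6 reached p under 0.05 before adjustment, all with VEZF1-WT lower (1.3% of all genes tested were). That count of 6 was 13 with no filter on low counts, 13 without replicate 1 of VEZF1-2A and 3 without replicate 2 of VEZF1-2A. With no filter on low counts 1 of the 28 passed it, LOX, a collagen cross-linking oxidase (adjusted p = 0.00124 in edgeR's quasi-likelihood test). Those with the smallest p were LOX and HK2, hexokinase 2. HK2 stood at 56, 52.9 and 59.2 CPM with VEZF1-WT against 61.2, 71.6 and 73 with VEZF1-2A. The HK2 groups did not overlap, and its log2 fold change was −0.29 (95% confidence interval −0.47 to −0.12, adjusted p = 0.9996 in edgeR's quasi-likelihood test). LOX stood at 1.23, 0.73 and 1.28 CPM with VEZF1-WT against 1.51, 2.95 and 2.9 with VEZF1-2A, which rests on 26 to 118 counts in a library. Its log2 fold change was −1.17 (standard error 0.29). LOX shares 2.49% of its exon bases with SRFBP1, which had 4335 counts over all libraries against 414 for LOX. The other 4, named after their values were seen, were PDK1, CA9, EGLN3 and P4HA2, with log2 fold changes of −0.51, −1.11, −1.14 and −0.20. Without replicate 3 of both groups the log2 fold changes were −0.29 for HK2, −1.19 for LOX, −0.40 for PDK1, −1.10 for CA9, −0.87 for EGLN3 and −0.18 for P4HA2. In that setting CA9, EGLN3 and P4HA2 were no longer under 0.05 before adjustment, but other HIF targets were, and the count was 5 of 28. CA9 had at most 50 counts in a library and EGLN3 at most 46, and PDK1 and CA9 share exon bases with AC078883.1 and ARHGEF39. The most abundant members, the glycolytic enzymes ENO1 and LDHA, had log2 fold changes of −0.02 (95% confidence interval −0.15 to 0.12) and −0.10 (−0.25 to 0.04).

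The libraries stood in the same order for the HIF targets and for BNIP3L, with a near tie among the HIF targets. BNIP3L was chosen by its difference between the groups, so the shared order includes that difference and is a description with no test. As the mean over the 28 genes of log2 CPM relative to each gene's mean, replicates 1, 2 and 3 of VEZF1-WT were at −0.04, −0.10 and −0.24, and those of VEZF1-2A at −0.04, 0.33 and 0.09. Replicate 1 of VEZF1-WT and replicate 1 of VEZF1-2A were thus level, and replicate 2 of VEZF1-2A stood apart above the rest. On the same scale BNIP3L was at −0.11, −0.22 and −0.34 with VEZF1-WT against 0.00, 0.37 and 0.29 with VEZF1-2A. BNIP3 was at −0.07, −0.03 and −0.19 and at −0.16, 0.26 and 0.19. Without replicate 2 of VEZF1-2A, 24 of the 28 HIF targets were below 0 with a median of −0.10, and without replicate 3 of VEZF1-WT 24 were, with a median of −0.14. Without replicate 3 of both groups 27 were, with a median of −0.16. The summed level of the 28 genes was 1616, 1603 and 1480 TPM with VEZF1-WT against 1638, 1714 and 1598 with VEZF1-2A, so the groups overlapped in the sum, of which ENO1 was the largest part.

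**Figure D4:**
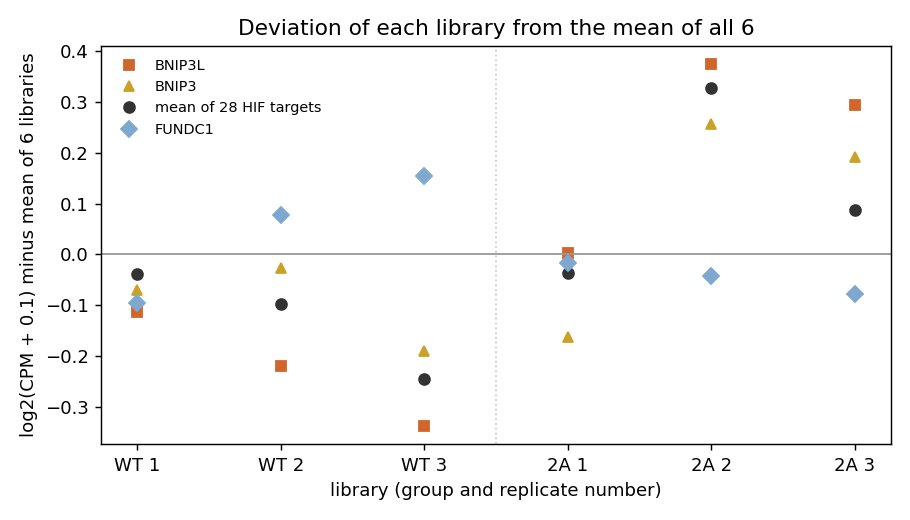
Deviation of each library from the mean of all 6, as log2(CPM + 0.1), for BNIP3L, BNIP3, FUNDC1 and the mean of 28 HIF targets. BNIP3L and the HIF targets are highest in replicate 2 of VEZF1-2A (0.37 and 0.33) and lowest in replicate 3 of VEZF1-WT (−0.34 and −0.24). BNIP3L was chosen by its difference between the groups.

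**Figure D5:**
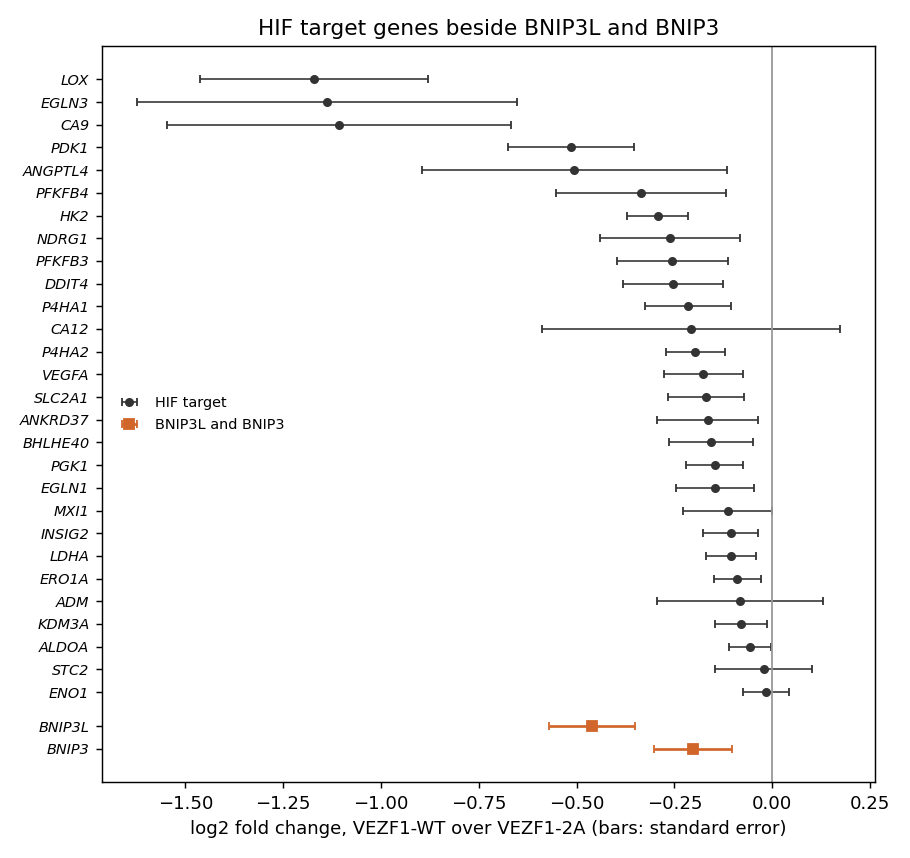
Fitted log2 fold change of VEZF1-WT over VEZF1-2A of the 28 HIF targets (black) beside BNIP3L and BNIP3 (orange squares), with standard errors as bars. All 28 points lie below 0, from −1.17 for LOX to −0.02 for ENO1, and 0 of them passed the adjusted threshold.

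HIF1A and EPAS1, the oxygen-regulated HIF subunits, had log2 fold changes of −0.04 (95% confidence interval −0.24 to 0.17) and −0.05 (−0.37 to 0.28). Both subunits are known to be controlled mainly through protein degradation. HIF protein was not measured in these libraries, and HIF activity was not tested. Of the 8 transcription factors listed, 0 passed an unadjusted p-value of 0.05, and the closest to it were TFEB, a regulator of lysosomal genes, with a log2 fold change of 0.27, and MITF, with a log2 fold change of 0.61 on at most 42 counts in a library.

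Genes that act on BNIP3, BNIP3L or FUNDC1 gave a single gene under the unadjusted threshold. SRC, a kinase that phosphorylates FUNDC1, stood at 34.6, 36 and 39.1 CPM with VEZF1-WT against 39.7, 42.4 and 40.5 with VEZF1-2A, and its log2 fold change was −0.16 (95% confidence interval −0.31 to −0.01, adjusted p = 0.9996 in edgeR's quasi-likelihood test). It was −0.22 without replicate 3 of both groups. With no filter on low counts it was −0.15, and SRC was then no longer under 0.05 before adjustment. SRC was the only one of 5 FUNDC1 regulators at an unadjusted p-value under 0.05, where 2.13% of all genes tested were. PGAM5, a phosphatase of FUNDC1, and ULK1, a kinase, had log2 fold changes of −0.01 and 0.08. Of 6 partners and turnover factors of BNIP3 and BNIP3L, 0 passed either threshold. Log2 fold changes were −0.11 for RHEB, a small GTPase, 0.11 for PPTC7, a mitochondrial phosphatase that limits both receptors, and −0.04 for BCL2L1, the survival factor BCL-XL. Among 8 other proteins described as receptors, 0 passed either threshold, and MUL1, an outer-membrane ubiquitin ligase, and PHB, the partner of PHB2, had log2 fold changes of 0.13 and 0.07, each with groups that did not overlap.

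Of 19 tested genes of the PINK1 pathway and its ubiquitin adaptors 0 passed either threshold, with a median log2 fold change of 0.01. VDAC1, the outer-membrane anion channel, and PARK7 were the most abundant of the list, with log2 fold changes of −0.03 and −0.02, and TBK1, the kinase of the autophagy adaptors, and VCP, the segregase, each had a log2 fold change of 0.08. Of the ATG8 family 5 of 7 genes were tested and 0 passed either threshold. MAP1LC3B (LC3B) and GABARAP were the most abundant, with log2 fold changes of −0.04 and 0.09, and MAP1LC3A and MAP1LC3C had 2 and 0 counts in all. GABARAPL2, with a log2 fold change of −0.09, had groups that did not overlap, and that of GABARAPL1 was −0.15. In the core autophagy machinery 24 of 25 genes were tested and 0 passed either threshold, with a median of −0.02. Their log2 fold changes included 0.00 for BECN1, part of the lipid kinase complex, −0.16 for ATG7, the activating enzyme of the conjugation system, and 0.07 for ATG101, of the ULK1 complex. ATG10 shares exon bases with RPS23, so its high count is uncertain.

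Of 15 genes used as measures of mitochondrial content 0 passed either threshold, and their median log2 fold change was 0.03. Among them it was 0.03 for HSPD1 and 0.02 for HSPA9, chaperones of the matrix, 0.10 for TOMM40, the import channel, and 0.09 for CYCS, cytochrome c, whose groups did not overlap. The summed level of these 15 genes was 2830 ± 73.3 TPM (SD, n = 3) with VEZF1-WT against 2748 ± 60.3 (SD, n = 3) with VEZF1-2A. Mitochondrially encoded genes took 7.94%, 8.03% and 8.28% of the counts with VEZF1-WT against 8.29%, 8.55% and 8.54% with VEZF1-2A. In bulk RNA, fewer mitochondria per cell and less RNA per mitochondrion cannot be told apart. Of 12 fission and fusion genes and 15 tested BCL2 family genes 0 passed either threshold, with medians of 0.01 and 0.02. FIS1 and YME1L1, the most abundant fission and fusion genes, had log2 fold changes of −0.05 and 0.01, and MIEF2 and MTFR1, those nearest to the threshold, had log2 fold changes of 0.27 and 0.06. In the BCL2 family, the log2 fold change was −0.03 for MCL1 and −0.12 for BBC3, and BCL2L1 shares 43% of its exon bases with ABALON.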

How the data were processed

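The authors deposited 1 table of raw counts per gene for the 6 libraries, with GRCh38 exon positions and a length for each gene. Aligner, counting program, annotation release and strand setting are not given in the sources used here. Of 59613 lines 5 were left out, on which the entry of ANK2 was broken. Between 65.7% and 67.5% of counts from 11 to 100 were even, so counts may not be independent and errors were taken from the spread between replicates.

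Counts were analysed with edgeR 4.0.16 in R 4.3.3. Genes were kept by filterByExpr (minimum count 10, minimum total 15), scaled by TMM and tested by glmQLFit and glmQLFTest with group as the only term, two-sided, with Benjamini-Hochberg adjustment over 19111 genes. The test was also run on simulated data, with means, library sizes and dispersion taken from the fit to these libraries. TPM was computed here from counts and length over all genes. Log2 CPM used a pseudocount of 0.1, and nearest profiles were sought among genes with a mean of at least 1 CPM. Alternatives were DESeq2 1.42.0, limma 3.58.1 (voom), other scalings, no filter, the replicate number as a block and libraries left out.

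The 7 genes and the lists were chosen with earlier results of these data known. From each list the 2 most abundant genes and the 2 with the smallest p were to be named, and the 5 genes nearest to BNIP3L. Genes sharing exon bases with the 7 genes, and their pseudogenes, were also named. Of the listed genes, 1 is left out and not reported here.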

Additional observations from a re-analysis of the deposited data

How the results depend on the processing

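Among 19111 genes, 0 had an adjusted p-value under 0.05, against 16 without a filter on low counts, 3 with DESeq2, 6 with the replicate number as a block, and 0 to 4 with libraries left out (4 without replicate 3 of both groups). Before adjustment 408 were under 0.05, against 896, 219 and 825 in the same 3 settings and 292 to 973 with libraries left out (973 without replicate 3 of VEZF1-2A). Of the 136 pathway genes 7 were under that threshold, against 18 with the replicate block and 3 to 15 with libraries left out (3 without replicate 2 of VEZF1-2A, 15 without its replicate 1). Of the 28 HIF targets 6 were, against 13 without the filter, 16 with the replicate block and 3 to 13 with libraries left out (3 without replicate 2 of VEZF1-2A, 13 without its replicate 1). With no filter 1 of them, LOX, passed the adjusted threshold. BNIP3 was under 0.05 before adjustment with the replicate block. The log2 fold change of BCL2L13 lay between −0.16 and −0.04 and that of FUNDC1 between 0.02 and 0.16. The log2 fold change of BNIP3L stayed below 0 in each setting, and with the replicate block it was −0.45. The log2 fold changes near 0 turned sign, that of PINK1 to −0.0032 with library size alone and between −0.13 and 0.14 with libraries left out, that of PHB2 between −0.0078 and 0.0326, and that of FKBP8 between −0.0254 and 0.15. By CPM in place of the level per length BNIP3L stood at position 6 of the 7 genes, not 5. Libraries with the same replicate number deviated together with correlations over genes of 0.082, 0.151 and 0.382, so the numbers were not taken to pair them. Leaving out replicate 3 of both groups, and every alternative for the HIF targets, was chosen after the data were seen.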
